A study of Mus musculus with 6 samples.

Results

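Carbonic anhydrases are zinc enzymes that hydrate carbon dioxide to bicarbonate and a proton. The cytosolic forms Car1 and Car2 fill red blood cells, where they load carbon dioxide into plasma bicarbonate, and Car2 also acidifies the pit under bone-resorbing osteoclasts. Other forms sit in mitochondria, on the outer cell membrane or in saliva, and a few have lost the catalytic zinc and are called carbonic anhydrase-related proteins. Described here are 8 mouse carbonic anhydrase genes, Car1, Car2, Car4, Car5b, Car7, Car8, Car12 and Car13, out of 16 family members and of 30738 genes that had a probe set of their own on the array. Each of the 8 had exactly 1 such probe set, and none shared a probe set with another gene. The 8 were chosen by results of these same arrays, in which the KO and control signals had been compared, and their differences are therefore given as a description, with no test.

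The arrays measured RNA of sorted LSK cells (lin-, Sca1+, cKit+), the bone marrow fraction that holds stem and multipotent progenitor cells. The 3 KO arrays came from mice labelled Ash2l exon4 fl/fl, MxCre, and the 3 control arrays from mice labelled Ash2l exon4 fl/fl, which carry the same floxed exon 4 but no Cre. Ash2l is a core subunit of the KMT2 complexes that methylate lysine 4 of histone H3. All mice, aged 10 to 25 weeks according to the methods, received 3 injections on alternating days and were analysed on day 10. The injected compound is pIC at 10 mg/kg in the methods and poly(dIdC) in the labels. The Mx1 promoter that drives Cre responds to interferon in many cell types, and since only the KO mice carried Cre, the transgene and the loss of Ash2l cannot be told apart. The labels call the arrays of each group biological replicates, and the paper speaks of 3 independent experiments. Neither source ties an array to a single animal or to a pool. Any error given here is therefore the spread between arrays, which may be technical in part.

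Values are log2 signals as normalized by the authors, with array medians between 6.02 and 6.09. The whole-gene probe set of Ash2l read 9.65, 9.63 and 9.65 in the KO and 10.76, 10.57 and 10.23 in the control arrays, so that the KO arrays lay below all controls. Of the genes of the sort gate, Kit lay between 11.93 and 12.92 on all arrays, and Ly6a, which encodes Sca1, was left out here as not analysed. Cd34, which this sort did not gate on, lay between 13.99 and 15.38. The T cell genes Cd3e and Cd8a reached 8.59 and 7.83 in KO replicate 2 against 5.19 to 7.32 and 5.31 to 6.41 in the other arrays. Of 12 measured gate, progenitor and lineage genes, 1 had every KO array above all controls and 1 had every KO array below. The shares over all named genes were 5.82% and 11.0%. Itgam, which encodes CD11b, read 9.60, 9.17 and 8.85 in KO and 7.63, 8.49 and 7.98 in control replicates 1 to 3. Flt3 read 10.98, 10.89 and 11.01 against 12.80, 11.84 and 11.90. In the limma fit over all 65956 probe sets, 0.0% reached an adjusted p below 0.05 (smallest 0.0528), while 2099 of the named genes were lower and 1408 higher at an unadjusted p below 0.05. Control replicate 3 weighed on this: without it, 914 probe sets were lower and 1418 higher at an adjusted p below 0.05. To tell low signals from background, each array was given a limit, the 95th percentile of 1229 olfactory receptor genes, which lay between 6.17 and 6.33.

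Of the 8 carbonic anhydrases, Car1, Car13 and Car12 read lower in every KO array than in any control, and none read higher in every KO array. For comparison, 11.0% of all named genes had every KO array below every control and 5.82% had every KO array above. Car8, Car2 and Car5b had higher KO means but overlapped, because control replicate 3 read like the KO arrays or above them. Car4 and Car7 stayed under the olfactory limit on all 6 arrays. The median log2 difference of the 8 genes was 0.01, beside -0.03 for all named genes, with 4 genes below 0 and 4 above. In RNA of a sorted population, fewer cells of a type and less RNA per cell cannot be told apart.

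**Figure D1:**
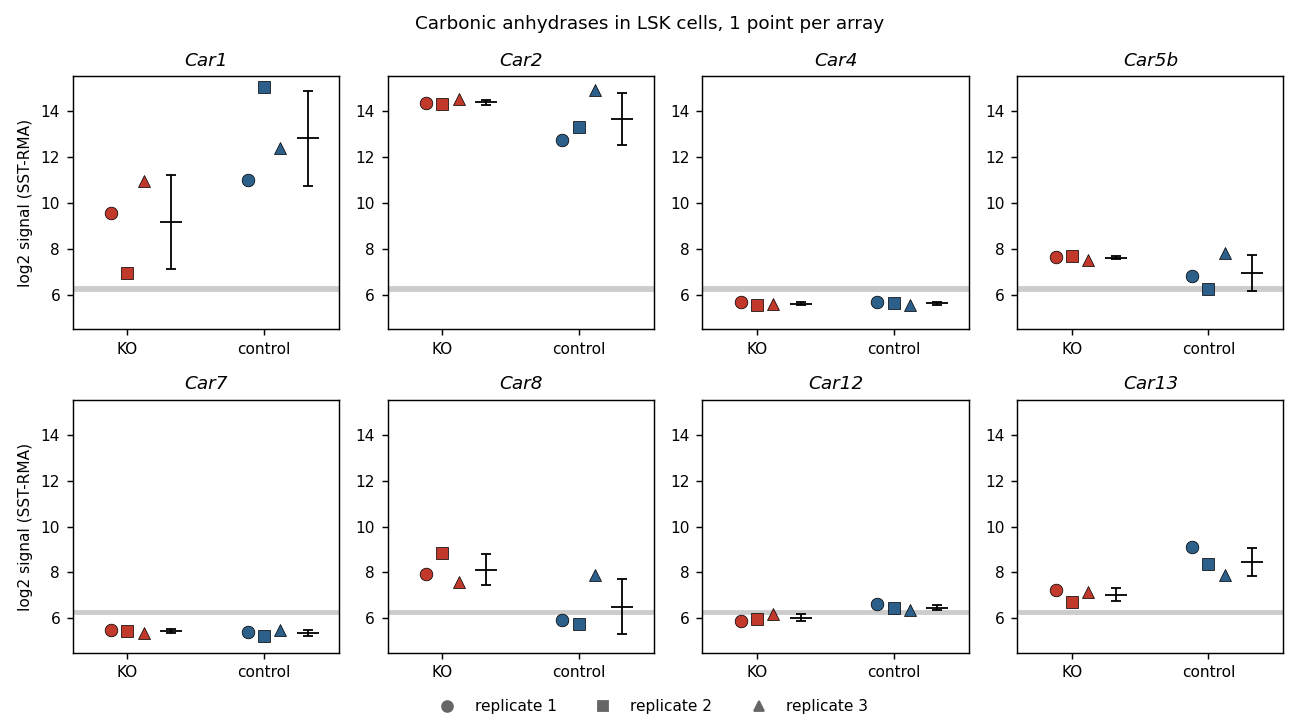
Log2 signal (SST-RMA) of the 8 carbonic anhydrases, 1 panel per gene, with KO arrays in red and control arrays in blue, marker shapes for replicates 1 to 3, and black bars for the mean ± SD of 3 arrays; the grey band is the range over arrays of the olfactory receptor limit, 6.17 to 6.33. Car1 spreads widely in both groups, Car2, Car5b and Car8 have control replicate 3 (blue triangle) at the KO level or above, and Car4 and Car7 stay under the band.

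Among the cytosolic enzymes, Car1 showed the widest values. Its signals were 9.55, 6.92 and 10.96 for KO replicates 1 to 3, and the controls, in the same order, gave 10.99, 15.03 and 12.38. The groups did not overlap, but KO replicate 3 and control replicate 1 were only 0.03 apart. The KO mean was 9.14 ± 2.05 (SD, n = 3) and the control mean 12.80 ± 2.05 (SD, n = 3), a 12.6-fold lower signal (log2 difference -3.66, standard error 1.29). That difference was smaller than the range within either group, which was 4.04 in both. With single arrays left out the difference lay between -4.57, without KO replicate 3, and -2.54, without KO replicate 2 or without control replicate 2.

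Car1 is an early marker of the erythroid lineage, and erythroid genes were read beside it. Of 27 measured erythroid marker genes, 3 were lower and 1 was higher at an unadjusted p under 0.05 from limma, and none passed the adjusted p; over all named genes 6.83% were lower and 4.58% higher at that level. The genes are Tfrc, the transferrin receptor, Slc25a37, the mitochondrial iron importer, and Tspan33, a tetraspanin, with log2 differences of -1.28, -0.51 and -0.43, and Alas2, the first enzyme of red cell heme synthesis, with 0.52. Their adjusted p from limma ranged from 0.278 to 0.391. The median log2 difference of the list was -0.17.
The mean log2 signal of the list was lowest, at 7.31, in KO replicate 2 and highest, at 8.24, in control replicate 2, the arrays with the lowest and the highest Car1. For the list mean, KO replicate 3 at 7.80 lay above control replicates 1 and 3 at 7.48 and 7.73. For Car1, KO replicate 3 lay below both, though by only 0.03 for control replicate 1. Within the KO arrays 19 of the 27 genes (70.4%) ranked the replicates as Car1 did, against 23.0% of all named genes, and within the controls 9 (33.3%) against 8.89%. In both groups at once 8 genes (29.6%) did so, against 2.17%. These orders were examined after the values had been seen. Rhag, an ammonia and gas channel of the red cell membrane, read 7.12, 6.29 and 7.92 in KO and 6.77, 8.96 and 7.03 in control cells, and Aqp1, the red cell water channel, read 6.89, 6.27 and 7.46 against 6.82, 8.85 and 7.29. For both genes control replicate 2 was the highest array, yet the groups overlapped. Of the list, 3 genes, Epb42, Add2 and Slc4a1, stayed under the olfactory limit on all arrays, and all 3 are among the 19 with the order of Car1 in KO. The order of such low signals means little. Of the 37 listed genes 10 were not analysed here, and the part of erythroid cells in the Car1 difference was not tested.

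The 5 genes whose array pattern lay nearest to that of Car1 were Kdm5d, Uty, Prg2, Eif2s3y and Ermap. The measure was the root mean square difference of the centred log2 values over the 6 arrays among 20141 genes. These distances were large, 1.23 to 1.60, where a gene that did not vary at all would stand at 2.48, and no gene came within 0.25. Prg2 encodes the eosinophil major basic protein and Ermap an erythroid membrane protein. The other 3 genes lie on the Y chromosome.
Eif2s3y, as an example, gave 10.39, 5.81 and 11.17 for KO replicates 1 to 3, and 9.40, 11.19 and 11.38 for the controls. Xist, the noncoding RNA of the inactive X chromosome, read 15.78, 16.65 and 7.01 in KO and 16.45, 7.13 and 12.86 in control replicates 1 to 3. KO replicate 2 thus had all 3 Y-linked genes under the olfactory limit beside the highest Xist. KO replicate 3 and control replicate 2 had high Y-linked signals with the lowest Xist, and the other 3 arrays had both. The labels give no sex. Car1 was lowest on the array whose Y-linked genes lay under that limit, and the part of sex in the Car1 difference was not tested. In KO replicate 3 and control replicate 2, the 2 arrays with the lowest Xist, Car1 read 10.96 and 15.03. Each is a single array and the highest for Car1 in its group, so that this pair is no test of sex.

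**Figure D2:**
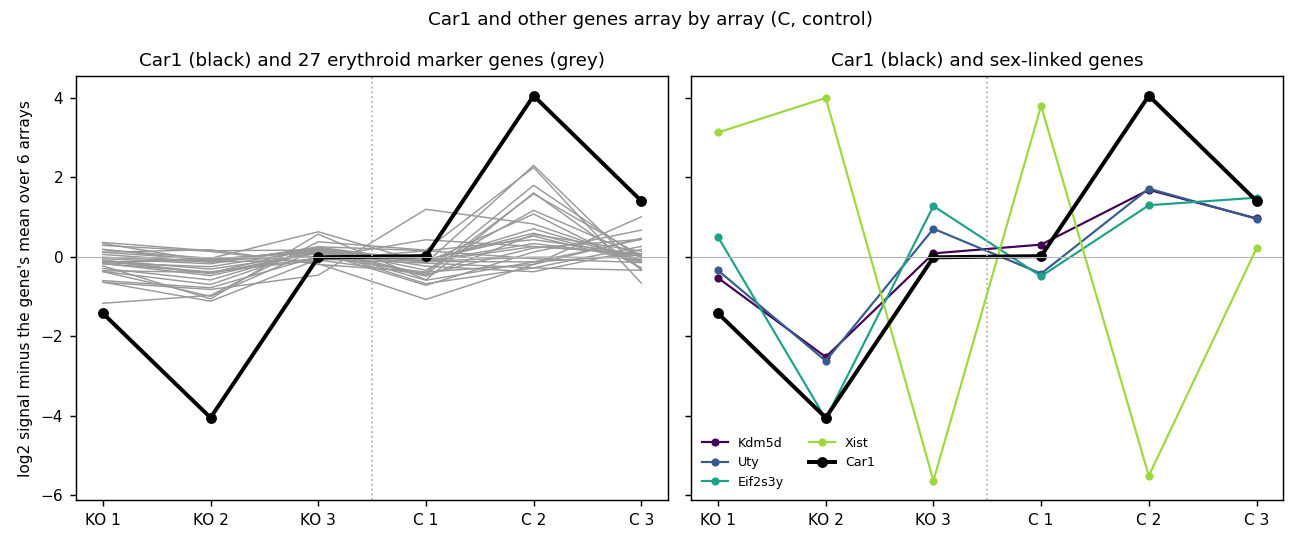
Log2 signal minus each gene's own mean over the 6 arrays for Car1 (black) with 27 erythroid marker genes (grey, left) and with 3 Y-linked genes and Xist (right); C is control, and lines join arrays only to guide the eye. Car1 is lowest in KO replicate 2 and highest in control replicate 2, 14 of the erythroid genes are highest in that control array and 15 lowest in that KO array, and the Y-linked genes are lowest in KO replicate 2, where Xist is highest.

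Car2, the fast cytosolic enzyme, behaved differently from Car1. It read 14.34, 14.29 and 14.50 in the KO arrays and 12.75, 13.31 and 14.91 in control replicates 1 to 3. The KO arrays were close together, 2 controls lay below them and control replicate 3 lay above. The means were 14.38 ± 0.11 (SD, n = 3) and 13.66 ± 1.12 (SD, n = 3), a log2 difference of 0.72 with a standard error of 0.51. Without control replicate 3 the difference was 1.35 (2.54-fold), and without control replicate 1 it was 0.27.
The genes nearest to Car2 were Eef1akmt1, Slc35f5, Ndrg1, F2r and Fahd1, at distances of 0.13 to 0.20, and 25 genes came within 0.25. F2r encodes a thrombin receptor and Ndrg1 is a stress and hypoxia response gene. Control replicate 3 was the highest array for all 5, as for Car2, by whose array values they were picked. Megakaryocyte markers moved in a like way: the mean log2 signal of 14 measured genes was 8.54 to 8.85 in the KO arrays and 7.45, 7.60 and 8.87 in control replicates 1 to 3. Osteoclast markers, of which 8 of 11 stayed under the olfactory limit on all arrays, had means of 6.06 to 6.14 in KO and 5.87 to 6.13 in control cells. Of these 11 genes, 7 had log2 differences below 0 and 4 above, with a median of -0.04. The largest, 2.04, was that of Itgb3, which is also on the megakaryocyte list and weighs on both means. The part of either cell type in the Car2 values was not tested.

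Car13, a cytosolic enzyme of wide tissue range, had the clearest separation of the 8. It read 7.24, 6.73 and 7.14 in KO and 9.10, 8.35 and 7.88 in control replicates 1 to 3, with 0.64 between the groups. Its means were 7.04 ± 0.27 (SD, n = 3) and 8.44 ± 0.62 (SD, n = 3), a 2.65-fold lower signal (log2 difference -1.41, standard error 0.31). The difference stayed between -1.69 and -1.08 with any single array left out.
The 5 genes nearest to it were Aspm, a spindle pole protein, Cdca2, a phosphatase subunit of mitotic chromosomes, Aurkb, the Aurora B kinase, H2ac14, a replication-dependent histone H2A, and Bub1b, a spindle checkpoint kinase. Their distances were 0.04 to 0.12, where a gene that did not vary would stand at 0.80, and 74 genes came within 0.25. All 5 have roles in chromosomes or mitosis, but no list of such genes was counted here and the rest of the 74 were not examined. Aspm had means of 8.86 in KO and 10.28 in control cells, a log2 difference of -1.42. Aurkb read 9.08, 8.57 and 8.92 in KO and 11.08, 10.30 and 9.59 in control replicates 1 to 3, with the controls in the same order as for Car13. Nearest genes of Car13, Car8 and Car5b were looked up after the values had been seen, and their likeness to these genes follows from the choice. Car7, the cytosolic form of neurons, lay between 5.23 and 5.51 on all arrays, under the olfactory limit, with a log2 difference of 0.06.

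Car13, Car1, Car3 and Car2 are neighbours on chromosome 3 (order as in GRCm38.p6), and they did not move as 1 block. The log2 differences along the cluster were -1.41 for Car13, -3.66 for Car1, 0.20 for Car3 and 0.72 for Car2. Car3, the form of muscle and fat, stayed under the olfactory limit on every array. The coding genes just before Car13 are Lrrcc1, E2f5 and Rbis, with log2 differences of -0.16, -0.23 and 0.09 and adjusted p from limma of 0.650, 0.714 and 0.821. Gm9733, a predicted gene next after Car2, read 7.80, 6.35 and 6.34 in KO and 5.42, 5.90 and 4.84 in control replicates 1 to 3. Its KO arrays lay above all controls, the latter all under the olfactory limit (log2 difference 1.44, adjusted p = 0.347 from limma). Among the 4 clustered genes, Car1 and Car13 had all KO arrays below all controls, and Car2 had control replicate 3 as its highest array.

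**Figure D3:**
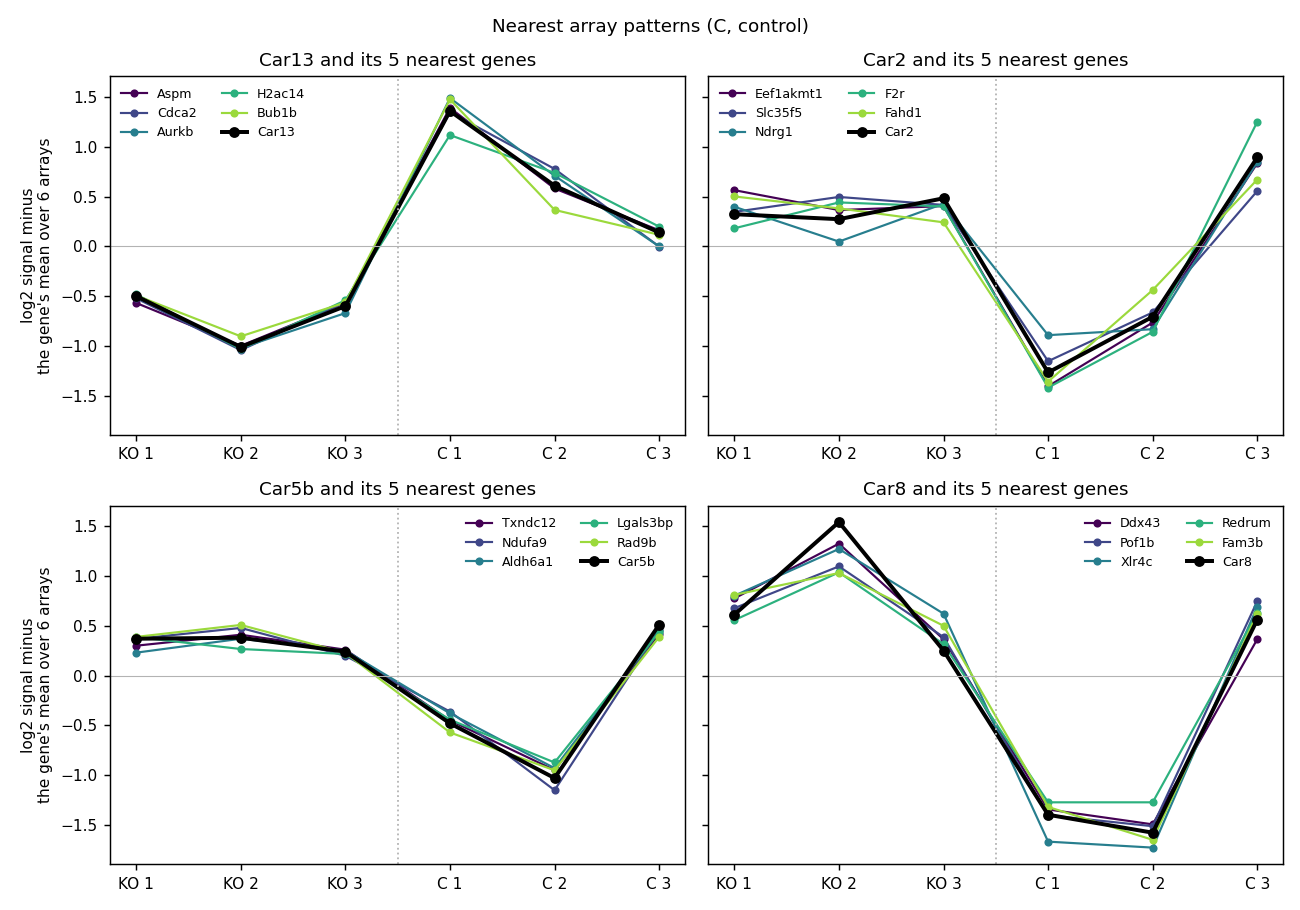
Log2 signal minus each gene's own mean over the 6 arrays for Car13, Car2, Car5b and Car8 (black), each with the 5 genes nearest to it by root mean square difference (coloured); C is control, and lines join arrays only to guide the eye. Car13 and its 5 nearest genes are low in all KO arrays, whereas for Car2, Car5b and Car8 control replicates 1 and 2 are low and control replicate 3 lies with the KO arrays.

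Car5b, the mitochondrial form that supplies bicarbonate to carboxylases in the matrix, read 7.65, 7.66 and 7.52 in the KO arrays. The controls read 6.80, 6.25 and 7.79, so that control replicate 3 was the highest array of all. The gene lies on the X chromosome. KO replicate 3 and control replicate 2, the arrays with the lowest Xist, had the lowest Car5b of their groups, and the part of sex was not tested. The log2 difference was 0.66 (standard error 0.36), from 7.61 ± 0.08 (SD, n = 3) and 6.95 ± 0.78 (SD, n = 3). It was 1.08 without control replicate 3 and 0.32 without control replicate 2.
Its nearest genes included Ndufa9, a subunit of respiratory complex I, and Aldh6a1, a mitochondrial dehydrogenase of valine breakdown, beside Txndc12, Lgals3bp and Rad9b, at distances of 0.06 to 0.09. As many as 382 genes came within 0.25. Over all named genes 4.58% were higher and 6.83% lower at an unadjusted p under 0.05. Of 8 measured carboxylases that use bicarbonate, 1 was higher and none lower at that level, with a median log2 difference of -0.05. It was Pccb, a subunit of propionyl-CoA carboxylase, named here after its values were seen, which read 9.17, 9.04 and 9.12 in KO and 8.30, 8.24 and 9.09 in control cells (log2 difference 0.57, adjusted p = 0.445 from limma). Its partner Pcca read 10.66, 10.61 and 10.48 against 9.63, 9.69 and 10.61. As for Car5b, control replicate 3 lay within or near the KO range for both subunits.

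Car8, a related protein without catalytic activity that binds the inositol trisphosphate receptor in neurons of the cerebellum, read 7.93, 8.86 and 7.57 in the KO and 5.92, 5.74 and 7.88 in the control arrays. Control replicates 1 and 2 lay under the olfactory limit and the other 4 arrays above it. The log2 difference was 1.61 (standard error 0.61), from 8.12 ± 0.67 (SD, n = 3) and 6.51 ± 1.19 (SD, n = 3). It rose to 2.29 (4.89-fold) without control replicate 3 and was 1.22 without control replicate 2. A signal near background in 2 controls leaves the size of this difference uncertain.
Car8 had 3 genes within 0.25, and the 5 nearest were Ddx43, Pof1b, Xlr4c, Redrum and Fam3b, at 0.15 to 0.25. All of them read low in control replicates 1 and 2, as did Car8, by whose array values they were picked. The megakaryocyte means given beside Car2, 7.45 and 7.60, were low in the same pair of arrays. The mean over 19 markers of eosinophils, basophils and mast cells was 7.14, 8.18 and 8.12 in control replicates 1 to 3 and 8.07 to 8.22 in the KO arrays, and it joins genes that differ in direction. Mcpt4, a mast cell protease named for its values, read 5.78 and 5.24 in control replicates 1 and 2, 6.70 in control replicate 3 and 7.45 to 7.55 in the KO arrays. Other genes of the list were not low in control replicate 2, which was the highest array for 6 of the 19. Cpa3 read 10.0 and 13.53 in control replicates 1 and 2, and Mcpt8 read 9.37 and 13.38. The part of either cell type in the Car8 values was not tested.

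The 2 membrane enzymes that face outward were at low signal. Car12, a transmembrane form, read 5.89, 5.99 and 6.21 in KO and 6.61, 6.43 and 6.37 in control replicates 1 to 3. The groups did not overlap, with 0.16 between them, but all 3 KO arrays lay under the olfactory limit and all 3 controls just above it. The log2 difference was -0.44 (standard error 0.13), and it lay between -0.53 and -0.37 with any array left out. Car12 is known as a target of the hypoxia response in other tissues. Of 16 measured hypoxia response genes besides it, 2 were lower and none higher at an unadjusted p under 0.05. Over all named genes 6.83% were lower and 4.58% higher at that level. The 2 hypoxia genes were Vegfa (log2 difference -1.16) and P4ha1 (-0.25), with adjusted p of 0.362 and 0.455 from limma. The median log2 difference of the list was 0.05. Car9, the other hypoxia-induced form, had a log2 difference of 0.10 (standard error 0.13). Car4, held to the membrane by a lipid anchor, lay between 5.53 and 5.67 on all arrays.

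Control replicate 3 lay nearest to the KO mean among the controls for 6 of the 8 genes (75.0%), namely Car2, Car4, Car5b, Car8, Car12 and Car13, against 41.4% of all named genes. The 8 were chosen by results of these same arrays, so that setting the shares side by side is no test. Car4 hardly varied, from 5.53 to 5.67, so that its order of controls means little. Without control replicate 3 the log2 differences of Car1 and Car12 were -3.87 and -0.49. The 8 family members outside the description, Car3, Car5a, Car6, Car9, Car10, Car11, Car14 and Car15, had log2 differences from -0.12 to 0.20. Only Car9 and Car15, a membrane-anchored form of the kidney, read above the olfactory limit on every array, and the other 6 were under it on all 6 arrays. Their adjusted p from limma ranged from 0.705 to 0.995. Car10, an acatalytic related protein, had all KO arrays below all controls by 0.01, at signals under 5.

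**Figure D4:**
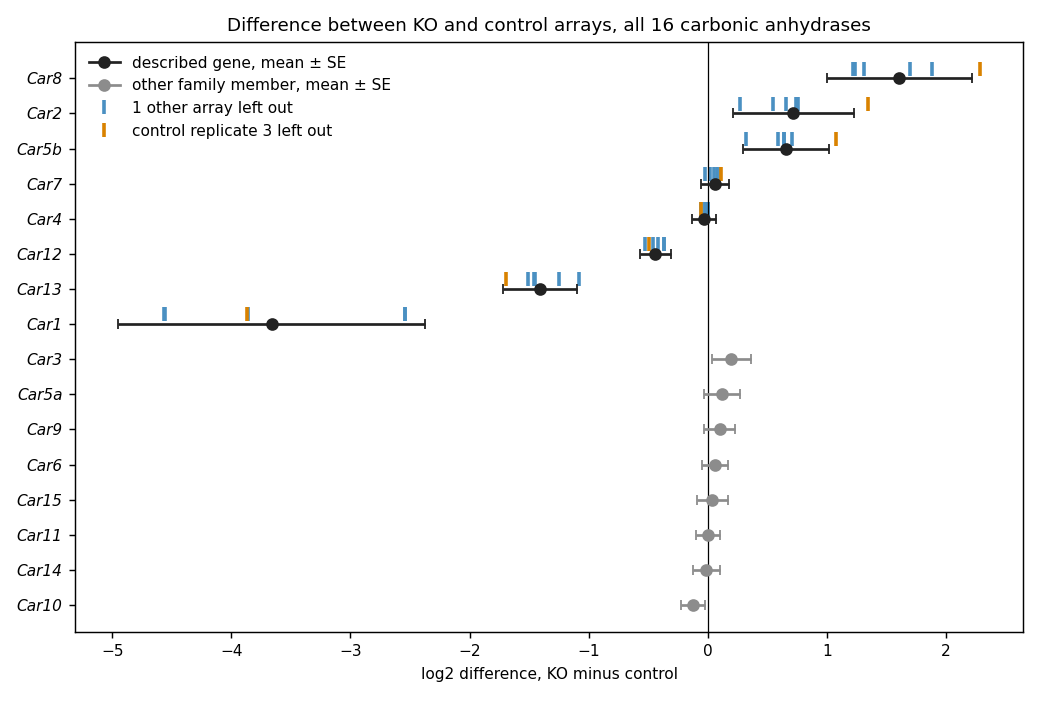
Log2 difference, KO minus control, of all 16 carbonic anhydrases (points, with bars of ± 1 standard error from the limma fit), the 8 described genes in black and the other 8 in grey; ticks give the value with 1 array left out, orange for control replicate 3. Car1, Car13 and Car12 lie to the left of 0 under each omission, Car8, Car2 and Car5b to the right and farthest from 0 without control replicate 3, and the 8 genes in grey lie between -0.12 and 0.20.

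Transport proteins that work beside carbonic anhydrases were counted at an unadjusted p under 0.05, which 6.83% of all named genes reached as lower and 4.58% as higher. Of 19 measured bicarbonate and anion exchangers, 1 was lower and 1 higher, Slc26a10 (log2 difference -0.37) and Slc26a8 (0.32), with 12 of the 19 under the olfactory limit on all arrays. The red cell exchanger Slc4a1 lay between 5.76 and 6.19 on all arrays. Of 16 proton and lactate exporters, 3 were lower and 2 higher, a larger share than over all named genes in either direction, and none passed the adjusted p. These counts depended on the setting. Under the alternatives they ran from 1 to 4 lower and from 0 to 3 higher, with 1 lower and 0 higher under the replicate block. Slc16a7, a monocarboxylate carrier, read 6.91, 6.76 and 6.86 in KO and 7.50, 7.81 and 7.26 in control cells, without overlap (log2 difference -0.68, adjusted p = 0.263 from limma). The other 4, named after their values were seen, overlapped: the lactate carrier Slc16a1 at -1.10 and the proton pump subunit Tcirg1 at -0.67, and, higher, the carrier chaperone Bsg at 0.48 and the pump subunit Atp6v0a2 at 0.56. Slc16a1 read 9.71 and 9.88 in control replicates 1 and 2 but 8.29 in control replicate 3, within the KO range of 7.82 to 8.62. Of 11 gas and water channels none was lower or higher at that level.

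Markers of other cell types that the sorted fraction or the family's known tissues could bring in were also read. Of 16 gut epithelium markers 10, and of 15 stromal and endothelial markers 8, stayed under the olfactory limit on all arrays. Over all named genes 6.83% were lower and 4.58% higher at an unadjusted p under 0.05. At that level the gut list had 2 lower and 1 higher genes, led by the mucin Muc13 (log2 difference -2.48) and the cadherin Cdh17 (2.38), and the stromal list none. Of 14 megakaryocyte genes 3 were higher and none lower, and of 19 eosinophil, basophil and mast cell genes 3 were higher and 1 lower. Of 18 neutrophil genes 4 were higher and none lower. Of 11 osteoclast genes 1 passed in each direction, the higher being Itgb3, which is also 1 of the 3 megakaryocyte genes. Of 12 gate, progenitor and lineage genes 2 were higher, Cd34 and Itgam, and 1 lower, Flt3. The mean log2 signal of the neutrophil list was 9.64 to 10.62 in KO and 8.10 to 9.72 in control arrays. None of the 200 measured list genes passed the adjusted p over all arrays, and 27 did without control replicate 3, where 4.43% of all named genes did. In that setting 8.42% of all named genes were lower and 11.0% higher at the unadjusted p. The list counts included 10 higher of 14 megakaryocyte genes, and 7 higher and 4 lower of 19 eosinophil, basophil and mast cell genes. They also included 4 higher of 16 hypoxia genes and 3 higher of 8 carboxylases.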

How the data were processed

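RNA of sorted LSK cells was measured on 6 MTA-1.0 arrays, 3 per group, from 40 ng each. The values deposited are log2 signals that the authors made with SST-RMA, 1 per probe set (65956 in all, 2.37 to 19.89); the submitters' processing notes name Affymetrix Expression Console, RMA and Transcriptome Analysis Console. The values were used unchanged, without filtering, and every per-sample column was used. GEO's platform annotation, updated through RefSeq gene IDs (330 symbols), gave 31292 probe sets with 1 gene, 1522 with several and 33142 with none; the probe set with the highest mean stands for a gene.

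KO and control were compared with limma 3.58.1 (R 4.3.3), with equal weights and no block, over all probe sets with Benjamini-Hochberg adjustment, after a test on simulated data. The members and lists were chosen with earlier results of these data known. Named were Ash2l, the members, the other family genes, up to 4 genes per list at an unadjusted p under 0.05 without overlap, and the 5 nearest genes of Car1 and Car2; further genes were picked after their values were seen. Figures were drawn with matplotlib 3.10.9 (Python 3.11.15). Alternatives were quantile normalization, median centring, blocks by replicate or description number, array weights, trend and robust priors, a filter on low signals, the methods' t-test, other probe set rules, group medians, and each array left out. A planned comparison of the proteins was not run. The number of arrays limits the precision.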

Additional observations from a re-analysis of the deposited data

How the results depend on the processing

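The log2 differences of the 8 carbonic anhydrases kept their sign in all 64 values under settings that leave out no single array. Each stayed within 1 SD of the reported one, the SD being pooled over both groups. The block by description number moved Car2 to 1.39 and Car5b to 1.06, over 1.5 times. Each gene has 1 probe set, so that the other probe set rules could not change it. Nor could the replicate block, which holds 1 array of each group. The 48 values with 1 array left out could not move by as much as 1 SD, whatever the data, so that this limit says nothing there. Among them Car7 changed sign around 0 (-0.02 to 0.11), and the differences of Car2 (0.27 to 1.35) and Car5b (0.32 to 1.08) moved by over 1.5 times. Counting changes of more than 2-fold with an unadjusted p below 0.01 gave 259 lower and 391 higher probe sets; the counts were 750 and 939 with a block by description number, 486 and 683 with array weights, and 77 and 100 by the methods' t-test, and with 1 array left out 165 to 858 and 189 to 1226, highest without control replicate 3. By limma, 0 probe sets in either direction reached an adjusted p below 0.05 (unadjusted, 2099 genes were lower and 1408 higher); quantile normalization gave 2 higher, median centring 1 higher, array weights 1 lower and 2 higher, and leaving out 1 array 0 to 914 lower and 0 to 1418 higher. Genes of the lists past that level numbered 0, and 0 to 27 with 1 array left out, where 27 came without control replicate 3. With the replicate block the 2-fold counts were 218 lower and 334 higher. Same-numbered KO and control arrays deviated from their group means with correlations of 0.16, -0.17 and -0.17 over probe sets. Deviations within a group of 3 arrays offset each other, so that these values cannot tell whether the replicate numbers pair the samples. By description number KO replicate 1 goes with control replicate 1 and KO replicate 3 with control replicate 2, both at 0.16. KO replicate 2 and control replicate 3 share no number, and that block takes no difference from them. Their correlation, 0.28, was nevertheless the highest of all pairs of a KO and a control array. The labels do not say what the number marks. The cause of these shifts was not tested. Of 364 counts at an unadjusted p under 0.05 over the 14 lists and their alternatives, 104 moved by over 1.5 times. Signals under the olfactory limit, as for Car4 and Car7, may hide differences.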
